A study of Mus musculus with 8 samples.

Results

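Distal p300 peaks called only in cells treated with bexarotene were examined in C2C12, an established mouse myoblast line that exits the cell cycle and fuses into myotubes when serum is withdrawn. Differentiation lasted 24 h in both conditions, and the treated cells (Bex) received 50 nM bexarotene, a synthetic rexinoid that activates the retinoid X receptor (RXR), while the untreated cells (Ctl) did not. In each condition p300 and myogenin were measured by ChIP-seq, with 1 library per factor. Both conditions therefore share the line and the differentiation protocol, and differ in the drug. Peak lists of 4 of the 8 samples were used, and the input and H3K27me3 libraries were not used.

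The members were chosen by the p300 peak calls of both conditions. They are the intervals of the Bex p300 list that overlapped no Ctl p300 interval by even 1 bp and whose center lay more than 1 kb from every transcription start site (TSS) of a protein-coding gene in the mm9 annotation. A segment of chromosome 8 from 80 to 100 Mb was left out. Of 9154 Bex p300 intervals, 1856 had no Ctl overlap, 1303 of these were distal, and 1204 remained outside the segment, which is 13.5% of the 8923 Bex p300 intervals outside the segment. A Bex myogenin interval overlapped 232 of the members, and the other 972 had none. The 4 lists hold 43759 intervals in all.

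p300 is a histone acetyltransferase and coactivator that is recruited to enhancers by sequence-specific transcription factors, and its peaks away from promoters are widely used to mark enhancers. Myogenin is a muscle basic helix-loop-helix factor that binds, as a dimer with an E protein, to the short sequence called the E-box and drives the genes of terminal myogenic differentiation. RXR binds DNA as a dimer with itself or with partners such as the retinoic acid, peroxisome proliferator-activated and liver X receptors, at direct repeats of a half-site. AP-1 (bZIP), Runx and Tead proteins also bind at myoblast enhancers, and CTCF binds at chromatin loop anchors.

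The deposited lists give positions only, so they show where a peak passed the caller and not how strong it was, and sequencing depth is unknown from them. Occupancy in more cells and higher occupancy per cell cannot be told apart. The Ctl p300 list holds 22051 intervals and the Bex p300 list 9154, and how many members lie just under the threshold in Ctl cannot be told from positions. The lists chose the members, so the absence of a Ctl peak is the definition and not a result. With 1 library per condition no difference between conditions was tested. Shares are given with 95% Wilson intervals, and differences between groups of peaks with 95% Newcombe intervals, which cover counting error over peaks only.

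Of the 6 myogenin-bound members nearest to a listed gene, the 5 with an E-box in the central 100 bp are shown first, because they join the mark, the factor and a gene of known function. The one left out, near Tead4, held none there. Each line is the central 100 bp of the p300 interval on the plus strand of mm9, with the E-boxes (CAGCTG or CACCTG on either strand, the second read as CAGGTG on the opposite strand) in capitals.
Actn3 (chr19:4876450-4876549): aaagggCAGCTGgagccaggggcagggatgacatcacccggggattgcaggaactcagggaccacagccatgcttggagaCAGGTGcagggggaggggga
Myod1 (chr7:53570152-53570251): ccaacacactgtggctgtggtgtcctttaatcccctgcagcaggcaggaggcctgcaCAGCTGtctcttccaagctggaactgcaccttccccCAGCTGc
Actc1 (chr2:113886094-113886193): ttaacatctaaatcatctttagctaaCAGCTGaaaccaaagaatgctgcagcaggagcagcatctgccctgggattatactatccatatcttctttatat
Myh3 (chr11:66919399-66919498): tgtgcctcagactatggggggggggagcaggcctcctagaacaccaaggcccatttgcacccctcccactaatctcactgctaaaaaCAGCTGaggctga
Ncam1 (chr9:49758619-49758718): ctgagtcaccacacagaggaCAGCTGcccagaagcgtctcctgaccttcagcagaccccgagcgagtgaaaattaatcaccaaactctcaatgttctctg

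Members with a Bex myogenin peak that were rich in E-boxes in the central 100 bp are shown next, because they give the densest sites under myogenin. A pair of members without myogenin, near Mtap1b and Gjb6, also held 4 E-boxes each and are not printed. Those near A230051G13Rik and Tnfsf13b held 4 E-boxes each and that near Sept4, the closest to a TSS of several with the same number, held 3, and of these 11 sites 10 were CAGCTG.
A230051G13Rik (chr11:58975048-58975147): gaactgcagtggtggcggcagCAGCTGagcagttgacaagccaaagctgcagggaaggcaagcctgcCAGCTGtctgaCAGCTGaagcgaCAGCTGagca
Tnfsf13b (chr8:10061105-10061204): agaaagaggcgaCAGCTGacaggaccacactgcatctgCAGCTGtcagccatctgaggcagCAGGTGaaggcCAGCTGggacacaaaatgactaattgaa
Sept4 (chr11:87387405-87387504): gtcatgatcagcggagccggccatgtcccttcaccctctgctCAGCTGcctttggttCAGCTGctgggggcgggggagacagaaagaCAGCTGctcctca

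The next sequences come from members without a Bex myogenin peak whose bZIP sequence (TGACTCA or TGAGTCA, in capitals) lay closest to the center.
Bbc3 (chr7:16899397-16899496): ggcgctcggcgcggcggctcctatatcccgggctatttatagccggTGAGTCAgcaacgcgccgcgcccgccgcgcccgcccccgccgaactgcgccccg
Acoxl (chr2:127676327-127676426): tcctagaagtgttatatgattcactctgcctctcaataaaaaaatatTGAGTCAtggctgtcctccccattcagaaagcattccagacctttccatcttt
Nin (chr12:71218276-71218375): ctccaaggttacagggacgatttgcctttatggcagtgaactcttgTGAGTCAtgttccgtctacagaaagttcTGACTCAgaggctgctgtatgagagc

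Next stands the 1 member with a match to the RXR-type direct repeat with a spacing of 1 (DR1), in capitals. It lay in intron 4 of Syn3, and its nearest TSS, 85.2 kb away, was that of Timp3.
Timp3 (chr10:85850753-85850852): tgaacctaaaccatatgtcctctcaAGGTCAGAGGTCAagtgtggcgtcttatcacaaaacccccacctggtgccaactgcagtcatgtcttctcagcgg

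The last sequences show the CTCF consensus (in capitals) in the members where it lay closest to the center, a choice made after the values were seen.
Cs (chr10:127772799-127772898): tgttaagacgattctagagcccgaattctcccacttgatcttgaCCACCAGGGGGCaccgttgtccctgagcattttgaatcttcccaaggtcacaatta
Arl4d (chr11:101520239-101520338): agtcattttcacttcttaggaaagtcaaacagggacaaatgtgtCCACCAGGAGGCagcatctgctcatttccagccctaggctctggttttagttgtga

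Myogenin was found at members about as often as at p300 peaks called in both conditions, and more often than at p300 peaks called only in Ctl. A Bex myogenin interval overlapped 232 of 1204 members, or 19.3% (17.1 to 21.6), beside 20.5% of all distal Bex p300 intervals. The share was 20.7% (19.8 to 21.7) of the 6619 distal Bex p300 intervals that overlapped a Ctl interval, here called shared, and 6.50% (6.08 to 6.94) of the 12756 distal Ctl-only intervals. Members differed from shared peaks by -1.46 percentage points (-3.81 to 1.06) and from Ctl-only peaks by 12.8 points (10.6 to 15.1). A longer interval has more room to overlap, and 81.2% of members had the smallest length in their list against 39.6% of shared peaks. Among intervals at the smallest length the myogenin share was 17.9% for members, 12.7% for shared and 5.49% for Ctl-only peaks, and members then stood 5.19 points (2.55 to 7.99) above shared peaks.

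**Figure D1:**
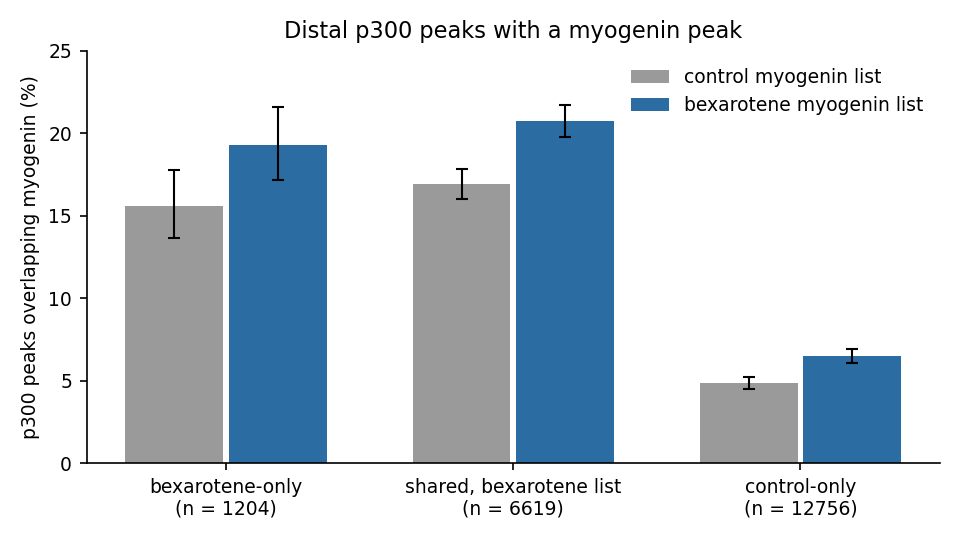
Share of distal p300 peaks (percent) that overlapped a myogenin interval, for peaks called only in bexarotene, in both conditions or only in control, with the control (gray) and bexarotene (blue) myogenin lists. Bars are shares and lines are 95% Wilson intervals over peaks. Bexarotene-only and shared peaks stand near 20% with the bexarotene list, and control-only peaks at 6.50%.

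Most of the members with myogenin also had a peak in the myogenin list of untreated cells, as did most shared peaks with myogenin. A Ctl myogenin interval overlapped 188 members, or 15.6%, beside 16.7% of all distal Bex p300 intervals. Of the 232 members with a Bex myogenin peak, 156 (67.2%, 61.0 to 73.0) also overlapped a Ctl myogenin peak and 76 did not. Among shared peaks with a Bex myogenin peak the share was 62.8%, a difference of 4.49 points (-2.28 to 10.8) whose interval spans zero. A further 32 members overlapped myogenin in Ctl only, and 940 (78.1%) in neither list. The p300 and myogenin centers lay a median of 49.5 bp apart, and 51.3% of the 232 pairs lay within 50 bp. The myogenin intervals at these members had a median length of 255 bp. Seen from the other side, 1608 of 5749 distal Bex myogenin intervals (28.0%) overlapped a Bex p300 interval, and 232 (4.04%) overlapped a member. A Ctl p300 interval overlapped 2247 of them (39.1%), from a p300 list with more intervals.

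E-boxes separated members with myogenin from those without. Within 50 bp of the center, 152 of 232 members with myogenin (65.5%, 59.2 to 71.3) and 221 of 972 without (22.7%, 20.2 to 25.5) held an E-box, a difference of 42.8 points (35.9 to 49.1). Over all distal Bex p300 intervals the share was 27%, and over all members 31.0%. Windows of the same length 2 kb to either side of members, free of p300 peaks, held an E-box in 11.1%. A pair or more of E-boxes stood in 23.3% of members with myogenin and in 3.70% of those without.

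Among members without a Bex myogenin peak, the E-box share of 22.7% was above the 18.9% of shared and the 15.8% of Ctl-only peaks without myogenin, by 3.85 points (1.10 to 6.78) and 6.93 points (4.32 to 9.75). Among peaks with myogenin, members again stood above shared peaks, at 65.5% against 54.5%, a difference of 11.0 points (4.15 to 17.4). The share also varied with the condition in which myogenin was called. It was 72.4% where both myogenin lists had a peak, 51.3% where only the Bex list did, 53.1% where only the Ctl list did, and 21.7% where neither did. The first of these stood 21.1 points (7.90 to 33.9) above the second. Members with myogenin in both lists also held more than a single E-box more often than those with myogenin in the Bex list only, at 46 of 156 against 8 of 76, a difference of 19 points (7.89 to 28.1). Over the whole interval, 42.6% of all members and 43.7% of all shared peaks held an E-box. The median interval length was 158 bp for members and 204 bp for shared peaks.

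The 2 forms of the E-box behaved differently. Within 100 bp of the center, CAGCTG stood in 74.1% of members with myogenin and in 28.5% of those without, beside 9.82% of flanking windows. CACCTG stood in 33.6% of members with myogenin and in 11.2% of those without, beside 13.1% of flanking windows. Members without myogenin were thus above the flanks for CAGCTG and not for CACCTG. Against shared peaks without myogenin, they differed by 2.50 points (-0.499 to 5.65) for CAGCTG, an interval that spans zero, and by 3.55 points (1.57 to 5.80) for CACCTG. Of the E-box sites within 50 bp, 73.1% (66.9 to 78.6) were CAGCTG in members with myogenin and 77.6% (72.2 to 82.2) in those without, against 42.5% in the flanks. A pair of pyrimidines followed the core, in either orientation, at 82.4% (76.8 to 86.9) of sites with myogenin and at 66.5% (60.6 to 72.0) of sites without. In the flanks it was 57.5% for all members and 57.4% (50.8 to 63.7) for those without myogenin. Shared and Ctl-only peaks, not split by myogenin, stood at 71.0% and 61.5% of sites.

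E-boxes were concentrated at the p300 center. In members with myogenin the density was 1.0 site per 100 bp within 40 bp of the center, 0.733 at 40 to 80 bp, 0.442 at 80 to 120 bp and 0.151 beyond 240 bp. In members without myogenin it was 0.287 at the center and 0.117 beyond 240 bp. The density at the center was thus 6.64 and 2.44 times the outer density. For shared and Ctl-only peaks it was 2.81 and 1.88 times. Those 2 classes pool peaks with and without myogenin, so they are not matched to either group of members.

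**Figure D2:**
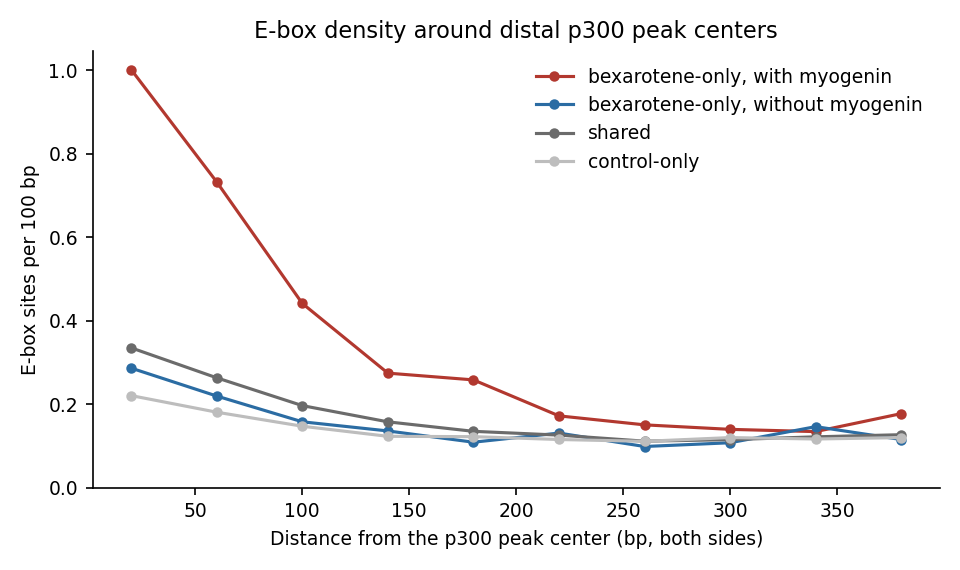
E-box sites per 100 bp against distance from the p300 peak center (bp, both sides pooled, bins of 40 bp), for bexarotene-only distal peaks with and without a bexarotene myogenin peak, shared and control-only distal peaks. The members with myogenin start at 1.0 site per 100 bp and fall to 0.151 beyond 240 bp, while the other groups start at 0.221 to 0.335. Shared and control-only peaks are not split by myogenin.

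Sequences of the AP-1 family were less frequent at members than at other distal p300 peaks. TGACTCA or TGAGTCA stood within 100 bp of the center in 221 members (18.4%, 16.3 to 20.6), above the 3.58% of flanking windows. The share was 32.1% in shared and 29.8% in Ctl-only peaks, so members stood lower by -13.8 points (-16.2 to -11.2) and -11.5 points (-13.7 to -9.06). The same order held among the smallest intervals, at 18.5%, 31.4% and 26.7%. It was 16.4% in members with myogenin and 18.8% without, a difference of -2.45 points (-7.38 to 3.35) whose interval spans zero.

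Runx and Tead sequences were also above the flanks and below the shared peaks. TGTGGT, the Runx core, stood in 27.7% of members, 14.9% of flanks, 37.8% of shared and 31.3% of Ctl-only peaks. It was more frequent in members with myogenin than in those without, 34.5% against 26%, a difference of 8.45 points (1.98 to 15.3). GGAATG, the Tead core, stood in 17.3% of members, 11.5% of flanks and 21.0% of shared peaks, and differed by 1.02 points (-4.05 to 6.93) between members with and without myogenin. CCAAT, bound by NFY, stood in 15.1% of members with and 21.4% of members without myogenin, beside 20.4% and 25.4% of their own flanks.

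The CTCF consensus was more frequent at members than in either other class, and mainly at members without myogenin. It stood in 62 of 1204 members (5.15%, 4.04 to 6.55), against 0.948% of flanking windows, 1.81% of shared and 2.40% of Ctl-only peaks. Members stood 3.34 points (2.17 to 4.76) above shared and 2.75 points (1.60 to 4.17) above Ctl-only peaks, and among the smallest intervals 3.59 points (2.20 to 5.25) and 2.06 points (0.711 to 3.72). Of the 62 matches, 58 lay in members without myogenin (5.97%) and 4 in members with it (1.72%), a difference of -4.24 points (-6.22 to -1.30). The matches lay a median of 34.5 bp from the p300 center. The members printed above, near Cs, the gene of citrate synthase, and near Arl4d, a small GTPase gene, were 2.04 kb and 6.57 kb upstream of the TSS.

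The nuclear receptor half-site stood at the level of the flanks, and direct repeats of it were rare in members and flanks alike. The half-site AGGTCA stood in 13.1% (11.3 to 15.2) of members and in 13.0% of their flanking windows, beside 11.6% of shared and 10.9% of Ctl-only peaks. Members differed from shared peaks by 1.57 points (-0.393 to 3.72) and from Ctl-only peaks by 2.26 points (0.384 to 4.35), the latter 2.35 points (0.219 to 4.74) among the smallest intervals. Direct repeats were searched with the half-sites AGGTCA or AGTTCA or GGGTCA or GGTTCA on either strand. DR1 was found in 1 of 1204 members, and DR4 and DR5 in 0 of 1204, for which the upper Wilson limit is 0.318%. In the flanking windows the shares were 0.0862% for DR1, 0.129% for DR4 and 0.0431% for DR5. The Mef2 sequence stood in 11 members (0.914%), beside 0.259% of flanking windows, 0.574% of shared and 0.635% of Ctl-only peaks. Members differed from shared peaks by 0.34 points (-0.116 to 1.07). Among the smallest intervals the shares were 0.716% for members and 0.763% for shared peaks. The CArG box of Srf stood in 15 members (1.25%), beside 1.25% of flanking windows. These matches are to fixed letters in a fixed window and are not measurements of binding.

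**Figure D3:**
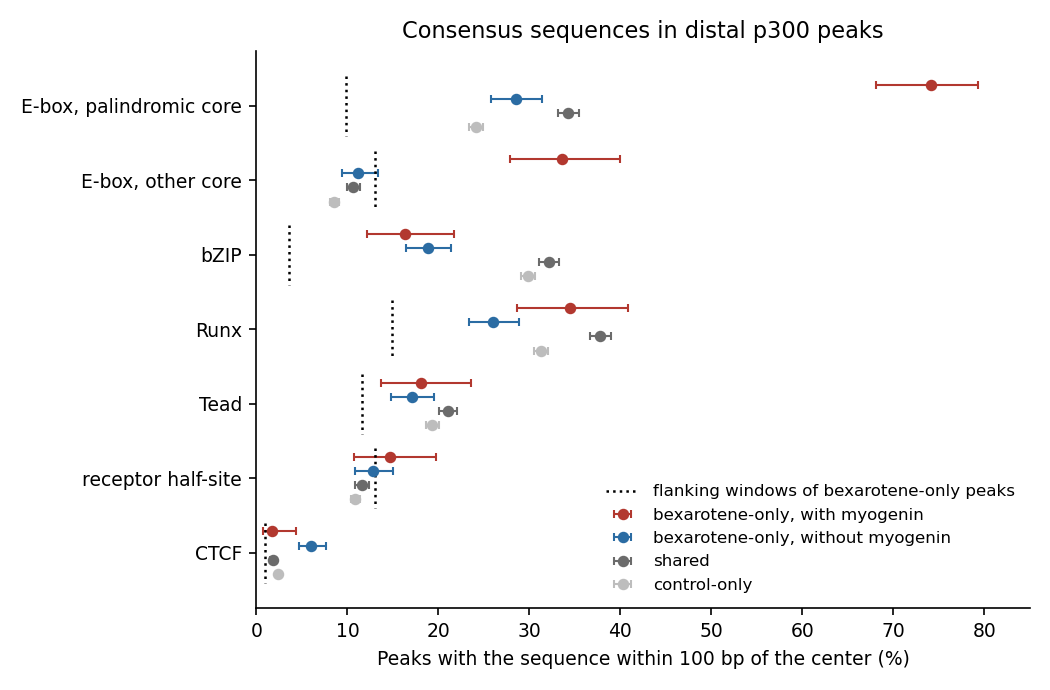
Share of distal p300 peaks (percent) that hold each consensus sequence within 100 bp of the center, with 95% Wilson intervals over peaks. Colors mark bexarotene-only peaks with and without myogenin, shared and control-only peaks, and dotted lines the flanking windows of bexarotene-only peaks. Shared and control-only peaks are not split by myogenin. The palindromic E-box reaches 74.1% in members with myogenin, bZIP is lower in both groups of members than in shared peaks (32.1%), and CTCF is highest in members without myogenin (5.97%).

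Of the members with a Bex myogenin peak, 6 were nearest to a gene of the lists of muscle, signaling and transcription factor genes. The Actn3 member (chr19:4876421-4876578, intron 1, 1.41 kb downstream of the TSS) was the closest to a TSS. Actn3 encodes the alpha-actinin of fast-fiber Z-discs. Its central 100 bp held 1 CAGCTG and 1 CAGGTG. A Bex myogenin interval of 328 bp, chr19:4876313-4876640, covered it whole, with the centers 23 bp apart, and a Ctl myogenin interval overlapped it too. The nearest Ctl p300 interval lay 113 kb away.

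The Myod1 member (chr7:53570123-53570280) lay 61.6 kb upstream of the TSS of this master regulator of the myogenic lineage. It held 2 CAGCTG sites in the central 100 bp and 3 E-boxes in the whole interval. A myogenin peak was called there in both conditions, the Bex one of 376 bp at chr7:53569948-53570323. The nearest Ctl p300 interval was 22.8 kb away.

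The Actc1 member (chr2:113886065-113886222) lay 6.86 kb upstream of the gene of cardiac alpha-actin, which early skeletal myotubes also express. It was the one of the 6 with a myogenin peak in Bex only, and it held 1 central CAGCTG. A second Actc1 member (chr2:113917608-113917765), 38.4 kb upstream, had no myogenin peak. Here Ctl p300 intervals lay close, 2.56 kb and 4.11 kb away.

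The Myh3 member (chr11:66919370-66919527) lay 27.6 kb downstream of the TSS of the embryonic myosin heavy chain gene and beyond its 3′ end. It held 1 CAGCTG in the central 100 bp and 2 E-boxes in the interval. The Ncam1 member (chr9:49758590-49758747) lay 152 kb upstream of the gene of neural cell adhesion molecule, an adhesion protein of fusing myoblasts, and held 1 CAGCTG. The Tead4 member (chr6:128215274-128215431, intron 2, 10.2 kb downstream of the TSS of this TEA domain factor) held no E-box within 50 bp and 1 in the interval. All of these 3 had myogenin peaks in both conditions, and all 6 intervals near listed genes had the smallest length of 158 bp.

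Members without myogenin near listed genes are given by gene. The closest of these members to a TSS lay near Fosl2, an AP-1 subunit gene (chr5:32437252-32437466, 1.49 kb upstream), 396 bp from a Ctl p300 interval. The E-protein gene Tcf4, whose product dimerizes with myogenic factors, had 4 members, the closest in intron 2, 2.37 kb downstream of the nearest TSS. Its fellow E-protein gene Tcf12 had one in intron 8 (chr9:71746779-71746936), which overlapped a myogenin peak in Ctl only. Runx2, the bone-lineage Runx gene, had one in intron 1, 4.67 kb downstream of a TSS. Mef2a, a MADS-box partner of the myogenic factors, had one in intron 3 (chr7:74449898-74450055).

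In the retinoid and nuclear receptor list, 6 of 30 genes (20%) were nearest to a member, beside 16.4% of the genes of all lists, and 36.7% were nearest to a shared and 46.7% to a Ctl-only peak. Those with a member included Abca1, Angptl4, Ppard, Pparg and Rara, and none of these members overlapped myogenin in either list. The Rara member, in intron 1 of the retinoic acid receptor alpha gene (chr11:98806600-98806757), lay 18 bp from a Ctl p300 interval. The Angptl4 member (chr17:33922069-33922226), near a gene for a secreted inhibitor of lipoprotein lipase, lay 3.63 kb upstream. The Ppard member (chr17:28363109-28363266), 6.51 kb upstream of this peroxisome proliferator-activated receptor gene, fell in an exon of the neighboring Def6. The Pparg member lay 29.1 kb downstream of the TSS and the Abca1 member, in the gene of a cholesterol transporter, 37.9 kb downstream. The nearest Ctl p300 intervals to the last 2 were 29 and 106 kb away.

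Counted over genes, 996 of 22232 protein-coding genes (4.48%) were nearest to a member and 225 (1.01%) to a member with myogenin. Of 219 listed genes, 36 (16.4%) were nearest to a member and 6 (2.74%) to one with myogenin. The same listed genes were nearest to a shared peak in 39.3% and to a Ctl-only peak in 53.4%, where the shares over all genes were 14.6% and 23%. Listed genes were nearest to a peak more often than all genes in each of these 3 classes. The lists were chosen with earlier results of these data known, so this excess is not independent of the data. Among myogenic regulators, 9 of 25 were nearest to a member (among them Eya2, Eya4, Id2, Mef2a, Mef2c, Myod1, Tcf12 and Tcf4), beside 12 for shared and 16 for Ctl-only peaks. Among genes of the sarcomere it was 5 of 46 (Actc1, Actn3, Myh3, Myom1 and Pdlim3), 3 of these with myogenin. Among AP-1, Runx and Tead factors it was 6 of 16 (Fos, Fosl2, Runx1, Runx2, Tead1 and Tead4).

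Members were mostly single. Of the 996 genes, 846 had 1 member, 112 had 2, 27 had 3 and 11 had 4 or more. The largest group was 8 members nearest to the olfactory receptor gene Olfr161, in an intergenic stretch of chromosome 16 that began 476 kb and ended 321 kb upstream of the gene, with GC contents of 24.5 to 41.5%. None overlapped myogenin. Frmd8 was the nearest protein-coding gene of 5 members, and all 5 lay within the annotated noncoding transcript Neat1, a nuclear RNA that builds paraspeckles. All 5 had a Ctl p300 interval within 663 bp and none overlapped myogenin. Thbs1, the gene of the matrix protein thrombospondin-1, had 5 members, of which 3 lay in its exons, 1 in intron 3 and 1 at 209 kb upstream. Mbnl1, a splicing regulator gene of muscle, had 5, of which 2 lay in intron 4. The non-muscle myosin gene Myh9 had 4, and the one 7.42 kb upstream of a TSS (chr15:77618901-77619058) overlapped myogenin in both conditions.

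The 5 members nearest to Cdh8, a cadherin gene, lay 972 to 1145 kb downstream of its TSS at chr8:100795523-100968115. This is next to the segment that was left out. In the first 1 Mb past its end there were 7 members and 0 shared or Ctl-only distal peaks, and in the segment itself 99 Bex-only, 100 shared and 249 Ctl-only distal peaks. Without these 7 members the total was 1197 and the myogenin share 19.4%.

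Chromosome 15 held the most members, 112 (9.30%), or 10.8 per 10 Mb. The next density was 5.98 per 10 Mb on chromosome 4, and the lowest was 1.38 on the X chromosome. Chromosome 15 also had the highest density of shared peaks, 43.6 per 10 Mb, and of Ctl-only peaks, 76.9, with 6.81% and 6.24% of those classes. The share of members with myogenin on chromosome 15 was 19.6%, and over chromosomes it ran from 9.09% on chromosome 19 to 34.4% on chromosome 7.

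**Figure D4:**
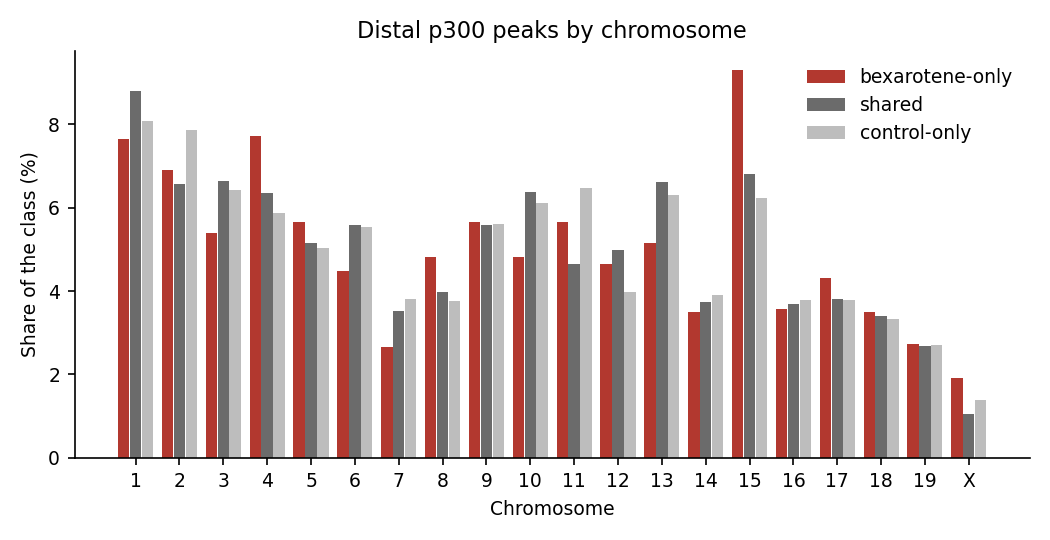
Share of each class of distal p300 peaks (percent) on each mouse chromosome, for bexarotene-only, shared and control-only peaks, with the chromosome 8 segment left out. Chromosome 15 holds 9.30% of the bexarotene-only peaks, against 6.81% of shared and 6.24% of control-only peaks.

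Members lay nearer to genes than other distal p300 peaks. The median distance to the TSS was 29.3 kb, against 42.2 kb for shared and 36.7 kb for Ctl-only peaks. Of the members, 15% lay 1 to 5 kb from a TSS, 11.0% at 5 to 10 kb, 38.1% at 10 to 50 kb, 17.3% at 50 to 100 kb and 18.6% beyond 100 kb. The share within 5 kb stood 6.64 points (4.62 to 8.86) above shared and 4.07 points (2.09 to 6.26) above Ctl-only peaks. Introns held 47.0% of members, exons 2.57% and intergenic sequence 50.4%, and the intron share was 41.3% for shared peaks. The share within 5 kb was 15.1% for members with myogenin and 14.9% for those without. Introns held 50.9% and 46.1% of these groups, a difference of 4.77 points (-2.35 to 11.9).

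A minority of members lay close to a Ctl p300 peak. The median gap to the nearest Ctl p300 interval was 6.41 kb, and 267 members (22.2%) had one within 1 kb, 113 of them within 200 bp. For Ctl-only peaks the median gap to a Bex p300 interval was 29.4 kb and 7.01% had one within 1 kb, with a shorter list to be near to. The share within 1 kb was 16.8% with myogenin and 23.5% without, a difference of -6.65 points (-11.7 to -0.723). Members within 1 kb of a Ctl interval held an E-box in 18.4% and the others in 34.6%, a difference of -16.2 points (-21.4 to -10.3). The CTCF consensus stood in 2.25% and 5.98%. Whether a border with a Ctl peak had a part in these shares was not tested.

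**Figure D5:**
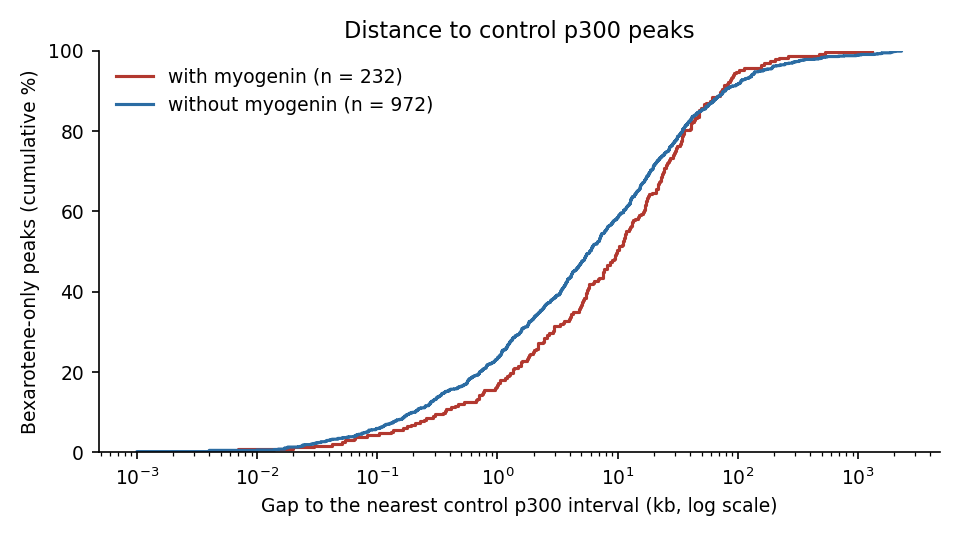
Cumulative share (percent) of bexarotene-only distal p300 peaks against the gap to the nearest control p300 interval (kb, log axis), for the 232 with and the 972 without a bexarotene myogenin peak. Within 1 kb lie 16.8% of the first and 23.5% of the second.

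The members nearest to the overlap limit had gaps to a Ctl interval of 1 bp near Tbx19, 1 bp near Bcl6 and 4 bp near Olfr809. A gap of 4 bp was also held by members near Mbnl1 and Nfib. The smallest overlaps, which kept a peak out of the set, were 5 bp near Pmepa1, 6 bp near Cyr61 and 8 bp near Myc. At the TSS limit, the members closest to a start lay 1.012 kb from Rbpj and from Ddx6 and 1.013 kb from Mical1. Bex-only peaks just within the limit lay 987 bp from 4930442H23Rik and 977 bp from Mynn. The Rbpj member (chr5:53980363-53980520, in intron 1), near the gene of the transcription factor of Notch signaling, overlapped myogenin in both conditions and held 1 E-box.

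Interval lengths were short in both groups. The median was 158 bp, the smallest value in the Bex p300 list, and the longest was 598 bp, 45.3 kb upstream of Il17a without myogenin. The smallest length was held by 75.4% of members with myogenin and 82.6% of those without. The longest with myogenin was 451 bp near Hlx (chr1:186499428-186499878), a homeobox gene. The next was 417 bp in intron 28 of Hecw2 (chr1:53871015-53871431), 29.2 kb upstream of Stk17b. It held 2 E-boxes in the whole interval and 0 in the central 100 bp. Both overlapped myogenin in Bex only. The median GC content of the central 200 bp was 52% in members with myogenin and 46% in those without, and 46.5% in shared peaks. The part of GC content in the sequence shares above was not tested. In 12 members (0.997%) over 50% of the 50-mers occurred elsewhere in the genome, 1 of these with myogenin. The same held for 0.302% of shared and 0.337% of Ctl-only peaks.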

How the data were processed

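C2C12 chromatin was immunoprecipitated for p300 and myogenin. Per the labels and methods, the authors aligned p300 reads to mm9 with Bowtie and myogenin reads with BWA-MEM. Duplicates were removed with Picard, and HOMER in factor style with the region option called the peaks of each library. The libraries of the 2 factors were sequenced on different instruments. The deposited lists hold chromosome, start and end of each interval and no counts, scores or input values. Starts were counted from 0 and are printed from 1. The authors' peak threshold could not be changed.

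Members followed the overlap and TSS rules in the opening, with 45974 protein-coding TSS positions of GENCODE vM1. The nearest gene is that of the nearest TSS. Sequences were read from the mm9 genome, and fixed consensus sequences were counted on both strands. Flanking windows lay 2 kb to either side and overlapped no p300 interval. The members and gene lists were chosen with earlier results of these data known. Of 220 listed genes, 219 were annotated. Loci were named by distance to the TSS, number of members per gene, length and closeness to a threshold. Repeat content was not analysed here, and a few loci the rule would name are not reported here.

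Python 3.11.15 with numpy 2.4.6, pandas 2.3.3, pysam 0.24.0, numba 0.67.0 and matplotlib 3.10.9 was used. The overlap, motif and interval functions were tested on simulated data, and 8 of 8 steps of 400 items were recovered. Alternatives changed the overlap rule, TSS distance and catalog, myogenin rule, E-box window and letters, interval length, and the chromosome 8 segment.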

Additional observations from a re-analysis of the deposited data

How the results depend on the processing

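The number of members depended on interval length and on what counted as overlap. Requiring a reciprocal overlap of 50% for a shared peak gave 3342 members, and keeping only intervals longer than the smallest gave 226. The other 5 alternatives gave 1024 to 1303. The share of members with a Bex myogenin peak was 17.1% with the reciprocal overlap, 25.2% among longer intervals, 16.9% where the p300 center had to lie in the myogenin interval, 23.1% with myogenin within 500 bp and 15.6% with the Ctl myogenin list. In the other 7 alternatives it was 17.9 to 19.8%. The difference in E-box share between members with and without myogenin was 31.1 points for any CANNTG and 36.4 to 46.5 points in the other 9. Leaving out members with repeated 50-mers, taking only the smallest intervals and widening the chromosome 8 segment by 1 Mb at its far end were chosen after seeing the data.

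No paired analysis was possible because each condition has 1 library per factor, so no replicate error, leave-one-out value or test between conditions exists here. Depth and peak strength are unknown from positions. The Bex p300 list is shorter than the Ctl list, and how much of that is depth was not tested.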

Other observations

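Other gene groups are given here. Their shares are to be read beside the 4.48% of all protein-coding genes and the 16.4% of all listed genes that were nearest to a member. None of the members named in this section overlapped a Bex myogenin peak. Among 13 extracellular matrix genes of fibroblast-like cells, Col3a1, Dcn and Postn (23.1%) were nearest to a member each, beside 8 for shared and 11 for Ctl-only peaks. The Col3a1 member lay 291 kb upstream, the Dcn member 166 kb upstream and the Postn member 96.9 kb downstream of the TSS. Among 26 growth factor signaling genes, Igfbp5, Notch2 and Notch3 had members (11.5%), beside 18 genes for shared and 21 for Ctl-only peaks. The Igfbp5 member, near the gene of a secreted binding protein of insulin-like growth factors, lay 4.34 kb upstream. Notch2 had 2 members in the gene, 10.9 and 22.9 kb downstream of the TSS, the first with a myogenin peak in Ctl only. The Notch3 member lay in intron 2.

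Of 26 genes of calcium handling and excitation, 0 were nearest to a member, where 6 were nearest to a shared and 10 to a Ctl-only peak. Of 13 metabolism genes, 1 (7.69%) was nearest to a member, a share near that over all genes. It was Mb, the myoglobin gene, with a member 36.2 kb upstream that lay inside Rbfox2 and held 1 E-box. Among fusion and adhesion genes, Cdh15 and Itgb1 had members without myogenin, 57.6 kb downstream and 30.9 kb upstream of the TSS.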
